A study of Mus musculus with 7 samples.

Results

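The peaks described here are the m6A peaks of regenerating mouse muscle that the authors annotated to the coding sequence (CDS) and in which they listed at least 1 GGAC motif. They were taken by these annotations alone, without regard to peak height, and number 1458 of the 5412 peaks in the muscle table (26.9%). They make up most of the 1726 CDS peaks and lie in 1247 of the 3980 genes of the table by symbol (31.3%). Of these peaks, 1456 are in genes annotated as protein coding, 1 is in a polymorphic pseudogene and 1 in an immunoglobulin constant region gene. The number of listed sites runs from 1 to 52 per peak, and the middle 50 percent of the peaks have 2 to 6, around a median of 3.

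N6-methyladenosine (m6A) is placed on mRNA by a methyltransferase complex with METTL3 as its catalytic subunit, and reader proteins that bind the mark affect splicing, translation and decay. The complex acts mostly within the DRACH consensus, in which the methylated A is followed by C, and GGAC is a strong form of it. Across mammalian transcripts the mark is frequent near stop codons, in 3′UTRs and in long internal exons, so coding exons carry a large share of it.

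In MeRIP-Seq, mRNA fragments captured by an antibody against m6A (IP) are sequenced beside the input. The muscle libraries were made from C57BL/6 mice at day 2 after injury of the muscle with cardiotoxin (CTX), with 1 IP and 1 input library labelled Knockout and 1 of each labelled Normal. In the study, the knockout mice were Pax7CreERT2 with floxed METTL3 and the control mice carried Pax7CreERT2 with wild-type METTL3, both given tamoxifen on consecutive days before the injury. C2C12 myoblasts, an immortal mouse line that can form myotubes, gave 1 input library labelled Normal and 2 IP libraries labelled Knockout.

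The Cre is active in Pax7-expressing cells, and whole injured muscle holds many other cells. The labels name the cell type of the muscle libraries as muscle stem cell and their source as muscle. Among the marker genes, 4 of 9 for muscle stem cells had a listed peak, and none of these was a CDS peak with the motif. Pax7, Myod1 and Sdc4 had 3′UTR peaks and Itga7 a CDS peak without the motif. Listed peaks were found for 2 of 7 markers of myofibres, 4 of 8 of leukocytes, 2 of 5 of fibroblasts and 1 of 4 of endothelium. Those with a CDS peak with the motif were Ttn and Ryr1 for myofibres, Cd14 for leukocytes, where Ptprc, Itgam and Ccr2 had other peaks, Pdgfra and Col1a1 for fibroblasts, and Cdh5 for endothelium. Over all genes in the table the share with such a peak was 31.3%, and the markers are too few to compare with it. Their part in the values below was not tested, and fewer cells of a type cannot be told apart from less RNA per cell.

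The authors' table holds 1 fold enrichment and 1 p-value of enrichment per peak over both genotypes. It lists differential peaks and not every peak, and it gives no read counts. Its columns comparing the genotypes were not used. There is therefore no replicate and no value per genotype, and the depth is unknown. All intervals given are 95% intervals and cover counting error only.

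CDS peaks with the motif were tall and long. Their median fold enrichment, the authors' ratio of IP over input, was 37.85 (interval of the median 32.3 to 42.4), and the quartiles were 9.73 and 134.75. The ratio also depends on the input, for which no value is given. Differences in height between genes and lists, here and below, were therefore not separated from transcript abundance. The median was 5.03 (4.0 to 5.7) in the 268 CDS peaks without the motif, 16.3 (14.6 to 18) in the 1610 3′UTR peaks with it and 12.9 over all muscle peaks. Among the peaks at rank 100 or better by fold enrichment, which are 101 because of a tie, 50 were CDS peaks with the motif (49.5%). The authors' p-value was listed as 0 for 34.8% of the CDS peaks with the motif (32.4 to 37.3), for 5.22% of those without it and for 16.4% of the 3′UTR peaks with it.

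Their median length, summed over exon blocks, was 690 bp (659 to 748), against 211 bp in CDS peaks without the motif and 446.5 bp in 3′UTR peaks with it. A longer peak has more room for a 4-letter motif, so the comparison was also made within classes of length. In peaks of 100 to 300 bp, the ratio of the median fold enrichment of CDS peaks with and without the motif was 1.40 (1.16 to 1.89), against 7.52 over all lengths. From 300 to 600 bp the medians were 17.05 with the motif and 16.2 without it, with overlapping intervals (14.4 to 20.5 and 10.7 to 26.9). From 600 to 1200 bp they were 68.85 in 464 peaks and 39.15 in 28 peaks, again with overlapping intervals (57.7 to 80.2 and 12.9 to 76.2). Up to 150 bp they were 3.49 (2.71 to 4.44) and 3.05 (2.78 to 4.5), and above 1200 bp only 2 CDS peaks lacked the motif, with a median of 845 against 151. In the classes up to 1200 bp the gap was thus smaller than over all lengths, and the intervals were apart only from 150 to 300 bp, at 5.17 (4.42 to 6.22) and 3.40 (2.85 to 3.82). The 3′UTR peaks with the motif had medians of 16.1 from 300 to 600 bp and 53.6 from 600 to 1200 bp, and their intervals overlapped those of the CDS peaks with the motif.

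Fold enrichment was higher where more sites were listed. The 290 CDS peaks with 1 site, which are the nearest to the limit of the rule, had a median fold enrichment of 7.67 and a median length of 271 bp. The 280 peaks with 4 to 5 sites had a median of 54.95, and the 137 peaks with 11 to 20 sites one of 178. Length rose alongside, to a median of 2095 bp in that last class. Among peaks of 600 to 1200 bp, the median fold enrichment was 41.1 (31.6 to 65.7) with 1 to 2 sites, 63.4 (51.7 to 80.4) with 3 to 4 and 84.4 (71.4 to 105) with 5 or more. The peaks with more sites were also longer within this class, with median lengths of 779, 867 and 931 bp. Among peaks of 300 to 600 bp, those with 1 to 2 sites and with 3 to 4 sites had medians of 15.5 and 15.4, and the 41 with 5 or more had one of 27.5 (18.9 to 61.9).

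Many CDS peaks with the motif crossed splice junctions. In 419 of them (28.7%, 26.5 to 31.1) the peak was made of 2 or more exon blocks, against 9.70% of CDS peaks without the motif and 6.89% of 3′UTR peaks with it. The median lengths of these classes were 690, 211 and 446.5 bp, and the shares were not compared at equal length. Peaks of 2 blocks had a median fold enrichment of 70.8 (47.0 to 103) and peaks in a single block one of 30.6 (24.6 to 35.7), with median lengths of 925 and 600 bp. Peaks of 3 or more blocks had a median of 56.55 (34.7 to 73.5), although their median length was 1257.5 bp. The density of sites hardly changed with the number of blocks, at 5.26 per 1000 bp in 1 block, 5.56 in 2 and 5.43 in 3 or more.

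The tallest peak of the whole table was a CDS peak with the motif in Mocs3, an enzyme of molybdenum cofactor synthesis and tRNA thiolation. It lay on chromosome 2 from 168231488 to 168232265 (GRCm38), held 8 sites in 778 bp and had a fold enrichment of 3860. Among CDS peaks with the motif, that of Fat1, an atypical cadherin, was next at 1560 (rank 3 of all peaks), with 5 sites in 1140 bp. The potassium channel gene Kcnk13 had a fold enrichment of 1480, and the cytokine receptor gene Il21r one of 1240. Tor4a, a torsin ATPase gene, had 1170 and Fgd6 had 1160. The others among the 10 highest CDS peaks with the motif, at ranks 17 to 25 of all peaks, were those of Zfp503 (1090), Fibin (1050), Zfp84 (1030) and Hic1 (977). Hic1, a transcriptional repressor known to mark mesenchymal progenitors in muscle, had 19 sites in 3120 bp. Of these 10 genes, Zfp503 and Zfp84 are on the zinc finger list, which was drawn from gene symbols alone and so leaves out Hic1, also a zinc finger gene.

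The peaks with the most sites were the longest ones. Plec, whose product plectin links intermediate filaments to other parts of the cytoskeleton and to the myofibre membrane, had 52 sites in a peak of 10796 bp on chromosome 15 from 76170974 to 76182912. Its fold enrichment was only 29.3, which is below the median of its class. Map1a, a microtubule-associated protein gene, had 47 sites in 7672 bp and a fold enrichment of 440. The remaining ones were 1110002E22Rik with 39 sites in 5359 bp, Spen with 34 in 6295 bp and Zfp516 with 34 in 4792 bp. Over all CDS peaks with the motif the density was 5.35 sites per 1000 bp (5.23 to 5.47), near the 5.23 of 3′UTR peaks with the motif.

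The densest peaks were short, as such a ranking favours, and CDS peaks with the motif of 150 to 300 bp had a median fold enrichment of 5.17. Among peaks of 200 bp or more, Col5a2, which encodes a fibrillar collagen chain, had the highest density at 23.8 sites per 1000 bp, from 5 sites in 210 bp, with a fold enrichment of 1.94. Nid1, a basement membrane gene, had 6 sites in 270 bp and a fold enrichment of 12.6. Eif4enif1, whose product binds the cap-binding translation factor, had a density of 20.8 and a fold enrichment of 3.62. Ankrd10 had 20.7 sites per 1000 bp and a fold enrichment of 23.8, and the striated muscle kinase gene Speg had 19.0 and 10.2. With 5 sites or so in each, these densities are imprecise.

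Distances between neighbouring sites were often a multiple of the codon length. In an open reading frame, GGAC can supply a GGA codon for glycine, a GAC codon for aspartate or the start of a threonine codon, depending on the frame. Of 5753 distances between neighbouring sites within CDS peaks, measured along the spliced blocks, 43.5% (42.2 to 44.8) were a multiple of 3 bp. The other remainders had 28.4% and 28.1%. In 3′UTR peaks with the motif, 35.6% (34.0 to 37.3) of 3070 distances were a multiple of 3 bp. The intervals of the CDS and 3′UTR shares do not overlap. They count each distance as independent, although distances in the same peak share a sequence, so they may be too narrow. The median distance was 99 bp in the CDS and 83 bp in the 3′UTR.

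The commonest distances in CDS peaks were 6, 12, 21, 9, 33, 18, 51, 69 and 42 bp, all multiples of 3, seen between 48 and 70 times each. The next was 8 bp, which is not a multiple and was seen 47 times. Multiples also led in 3′UTR peaks with the motif. The commonest distances there were 9, 27, 5, 6, 33, 12 and 15 bp, seen between 31 and 37 times each, and only 5 bp is not a multiple. The next ones there, 7, 25 and 16 bp, are not multiples. The share of multiples in the CDS was 47.2% (42.9 to 51.5) at distances of 4 to 15 bp. It was 44.5% (40.4 to 48.6) at 16 to 30 bp and 46.2% (43.0 to 49.5) at 31 to 60 bp. From 61 to 120 bp it was 45.4% (42.7 to 48.1) and from there to 240 bp 42.1% (39.6 to 44.7). Above 240 bp it was 38.1% (35.2 to 41.1). In 3′UTR peaks the shares in the classes up to 60 bp were 41.4% (36.2 to 46.9), 39.8% (34.8 to 45.0) and 37.8% (33.8 to 42.0). In the longer classes they were 31.9% (28.6 to 35.3), 35.7% (32.2 to 39.4) and 31.6% (27.3 to 36.1). In both, the share was lower at the longest distances than at the shortest, without a steady fall. The intervals of the CDS and 3′UTR overlapped at 4 to 15 bp, at 16 to 30 bp and above 240 bp. Zinc finger genes, whose fingers repeat along the protein, had much the same share. It was 45.4% (39.9 to 51.0) of 304 distances, and 2 of the distances equalled the 84 bp of a finger repeat. The shortest distance, 4 bp, as in a tandem GGACGGAC, occurred 17 times.

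Some genes kept nearly all of their sites on the same register, that is, at the same remainder when the distance from the 5′ end of the peak is divided by 3. The genes named here for their register were chosen after their values were seen, apart from Plec and Arid1b. In Ado, which encodes a thiol dioxygenase, all 10 sites of the peak were on the same register. Arid1b, a subunit of the BAF remodelling complex, had 13 of 14, and Pdgfra, the growth factor receptor of fibroblasts and their progenitors, had 11 of 12. Traf3ip1, a gene of intraflagellar transport, had 9 of 10. In the long peak of Plec it was 41 of 52. Such peaks were a minority, since 21 of the 186 CDS peaks with 10 or more sites (11.3%, 7.50 to 16.6) had at least 75.0% of them on the same register, beside 2 of 37 such 3′UTR peaks. Among CDS peaks with exactly 3 sites, all lay on the same register in 44 of 190 (23.2%, 17.7 to 29.7), beside 25 of 232 (10.8%, 7.41 to 15.4) in the 3′UTR. Which codon frame the register stands for was not analysed here.

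Sites were spread over the whole peak. With each peak divided into 10 equal parts, parts 5 and 6 in the middle held 10.5% and 10.9% of the sites, against 8.60% in the part at the 5′ end and 7.89% in that at the 3′ end. The most sites found in any stretch of 100 bp was 6, in the BTB zinc finger gene Zbtb22 and in Traf3ip1. The highest number in such a stretch was 1 in 509 peaks, which include the 290 with 1 site in all, 2 in 560, 3 in 290 and 4 in 87.

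Where the bases around a site could be read, the listed sites held the motif. RefSeq sequence of GRCm38.p6 covered 53 sites of CDS peaks with the motif in 42 genes, close to annotated gene starts, and all 53 read GGAC on the strand of the gene. The covered stretches held 55 GGAC in all, so 2 were not listed. The base after GGAC decides whether the site meets DRACH, which excludes G there. It was A, C or T in 37 of the 53 (69.8%, 56.5 to 80.5) and G in 16. In the other muscle peaks the share was 78 of 106 (73.6%, 64.5 to 81.0), so no difference was detectable. Only G is excluded, so an even split of bases would also put most sites in DRACH. A, C, G and T followed 11, 14, 16 and 12 times in the CDS peaks with the motif. In the other peaks they followed 26, 26, 28 and 26 times. These shares therefore show no preference for DRACH. The covered sites are not a sample of all sites, since they lie near gene starts.

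For each following base, the covered site in the tallest peak is shown, with the motif in capitals. The Fibin site lies at chr2:110362965-110362989 on the minus strand and is followed by G. Fibin encodes a secreted protein, and its peak of 1402 bp has 8 sites. The Ccdc71l site, at chr12:32378794-32378818 on the plus strand, is followed by A, in a peak with a fold enrichment of 969. The site of Cic, the gene of the repressor Capicua, lies at chr7:25271036-25271060 on the plus strand and is followed by C, in a peak of 3113 bp with 21 sites and a fold enrichment of 752. The site of the zinc finger gene Zfp830, at chr11:82764384-82764408 on the plus strand, is followed by T, in a peak with a fold enrichment of 394. Ccdc71l, Cic and Zfp830 were chosen after the values were seen, because their sites were covered.
Fibin: agaggatcagGGACgctgaggagcg
Ccdc71l: cccggccacaGGACaaccagcgcgt
Cic: aggctgagcgGGACcctggagctga
Zfp830: acctctactcGGACtccggctggga

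Among the named genes, 1110002E22Rik, with 39 sites, had a covered site at chr3:138067556-138067580 on the plus strand, which meets DRACH with a C after the motif. The gene has no established role.
1110002E22Rik: ggagacagagGGACctcctggggcc

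Jun, the immediate early gene for a core subunit of the AP-1 transcription factor, had the most covered sites and is shown for that reason, a choice made after the values were seen. Its single-block peak on chromosome 4 from 95049660 to 95052222, on the minus strand, covers 80.4% of the gene, with 16 sites and a fold enrichment of 184. The A of the covered sites lies at bases 23, 95, 99, 124 and 131 of the peak, and the sites at 95 and 99 form a tandem GGACGGAC. The sites at 23, 99, 124 and 131 are followed by T and so meet DRACH, and the site at 95 is followed by the G of its neighbour. The windows lie at chr4:95052188-95052212, chr4:95052116-95052140, chr4:95052112-95052136, chr4:95052087-95052111 and chr4:95052080-95052104, and the windows of bases 95 and 99 and those of bases 124 and 131 overlap.
Jun base 23: ggctggataaGGACtcagagttgca
Jun base 95: acagacagacGGACggacttggcca
Jun base 99: acagacggacGGACttggccaaccc
Jun base 124: ggtcggccgcGGACtccggactgtt
Jun base 131: cgcggactccGGACtgttcatccgt

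AP-1 and immediate early genes, which are switched on within minutes to hours of injury or growth factor signals, had CDS peaks of similar height. Of the 13 genes of this list with a peak in the table, 8 had a CDS peak with the motif, 1 each, beside the 31.3% of all genes in the table. These peaks had a median fold enrichment of 112.5 and a range of 84.2 to 219. All 8 stood above the 37.85 of all CDS peaks with the motif, but they were long, with a median of 1864 bp, and such peaks of more than 1200 bp had a median fold enrichment of 151 (131 to 166). Fosl2, an AP-1 subunit, had 219 with 12 sites. The transcription factor genes Cebpd and Klf4 had 122 and 120.

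Zinc finger genes form the largest list. Of 117 in the table, 57 had CDS peaks with the motif (31.3% over all genes), 65 peaks in all, and 51 of these were at or above the median of the class. Their median fold enrichment was 129 at a median length of 1135 bp, while their density, 4.23 sites per 1000 bp, was lower than the 5.35 of the class. Zfp503, a transcriptional repressor, had 20 sites in 2423 bp on chromosome 14, Zfp516 had 34 sites at a fold enrichment of 813, and Zbtb24, linked to DNA methylation at repeats, had 5 sites at 562. At the low end, a peak of Zfp106 had a fold enrichment of 2.03.

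Genes of chromatin modifiers and remodellers had 47 CDS peaks with the motif in 32 of the 48 list genes in the table, again beside 31.3% of all genes. Their median fold enrichment, 39.3, was close to that of the class, over a range from 1.39 in Chd4 to 604 in Crebbp. Crebbp, a histone acetyltransferase gene, had 15 sites in 2517 bp near the 3′ end of the gene. Tet3, which encodes an enzyme that oxidises methylcytosine, had 458, the acetyltransferase gene Kat6a had 454, and Arid1b had 387. The methyltransferase gene Kmt2d had 4 such peaks with fold enrichments from 12.7 to 261.

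In the Notch pathway, which keeps muscle stem cells quiescent and undifferentiated, 15 of 39 list genes were in the table and 7 had CDS peaks with the motif (31.3% over all genes), 8 peaks in all. The ligand gene Dll1 had a fold enrichment of 275, with 5 sites in 509 bp over 2 exon blocks on chromosome 17 from 15368192 to 15368815. The other ligand gene, Jag2, had 96.0 with 8 sites in 838 bp. Of the receptors, Notch4 had 138 with 10 sites and Notch1 had 23.4 with 1 site in 690 bp, both in peaks near the 3′ end of the gene. Among nuclear partners, the coactivator gene Maml1 had 108 with 8 sites. Spen, a corepressor that binds the pathway's DNA-binding protein, had peaks at 256 and 131. Dtx3, a ubiquitin ligase gene of the Deltex family, had the lowest value, 9.42. The list median was 119.5, over 8 peaks.

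Of the 23 genes of the m6A machinery on the list, 9 were in the table. Of these, 2 had CDS peaks with the motif, Rbm15b and Fto, beside 31.3% of all genes, again too few to compare. Rbm15b, whose product recruits the methyltransferase complex to RNA, had a peak of 3107 bp with 25 sites and a fold enrichment of 702, rank 61 of all peaks. A shorter peak of 682 bp and 7 sites, with a fold enrichment of 151, lies within it and shares its sequence. Fto, a demethylase gene, had a low peak of 480 bp with 3 sites and a fold enrichment of 8.69. Of the 23 myogenic transcription factor genes on the list, 9 were in the table, and 1 of these had a CDS peak with the motif, beside 31.3% of all genes, a count too small to compare. It was Myog, which drives terminal differentiation. Its peak of 330 bp on chromosome 1 from 134290019 to 134290348 had 4 sites and a fold enrichment of 6.82.

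Cell cycle genes had 12 CDS peaks with the motif in 8 of the 19 list genes in the table (31.3% over all genes), with a median fold enrichment of 35.15. E2f3, a transcription factor of the G1 to S transition, had 156, Incenp of the chromosomal passenger complex had 111, and the kinetochore gene Cenpf had 82.6 and 43.5. Mki67, which encodes the proliferation marker Ki67, had 4 peaks in 7452 bp of chromosome 7. In the direction of transcription their fold enrichments were 40.8, 30.6, 24.2 and 19.1. Their sites were unevenly spread, with 4, 1, 5 and 3, and the peak with 1 site was 2037 bp long.

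Genes of the leukocytes that enter injured muscle had 7 CDS peaks with the motif in 7 of the 25 list genes in the table, a share near the 31.3% of all genes there. Cd14, the lipopolysaccharide coreceptor gene of monocytes and macrophages, had a fold enrichment of 194 with 7 sites in a peak that covers 81.3% of the gene. The phosphatase gene Inpp5d had 57.1, the cytokine gene Tnf 44.5 and the RNA sensor gene Tlr7 20.7. The list median was 20.7.

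Extracellular matrix genes had low and short CDS peaks with the motif, with a median length of 330 bp and a median fold enrichment of 8.85 over 17 peaks in 14 of the 32 list genes in the table (31.3% over all genes), and 4 of the 17 were at or above the median of the class. All CDS peaks with the motif had medians of 5.17 at 150 to 300 bp and 17.05 at 300 to 600 bp. The 4 tall ones were those of the protease gene Adamts1 (245), of its substrate Vcan (152), of Col6a1 (133) and of Tnc (69.2), which encodes tenascin, a matrix protein of regenerating tissue. Other collagen genes, fibrillar or not, stood at the low end, with 3.46 for Col6a3, 3.37 for Col18a1, 3.19 for Col1a1 and 1.94 for Col5a2.

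Sarcomere and calcium handling genes were the lowest list, with a median fold enrichment of 2.685 over 36 peaks in 9 of the 23 list genes in the table (31.3% over all genes). Of these peaks 24 belong to Ttn, the giant elastic protein of the sarcomere, so the list is mostly that gene. The 2 peaks at or above the median of the class were both in Synpo, an actin-associated protein gene, at 117 and 54.0. The Ttn peaks were spread over 235905 bp of chromosome 2 and held 69 sites in 10523 bp. Their fold enrichments lay between 1.16 and 8.13 (median 2.575). The tallest was a peak of 1231 bp with 11 sites, from 76749885 to 76751115, and the authors' p-value of enrichment for it was listed as 0. The abundance of these transcripts in the input is not given, and its part in the low ratios was not tested.

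Ahnak, a giant scaffold protein gene of membrane repair, had 10 CDS peaks with the motif, with fold enrichments of 1.15 to 12.5 and 38 sites in all. Dst, a cytoskeletal linker gene, had 5 peaks at 3.59 to 64.5. Apart from Ttn, no other gene had more than 4, a number reached by 13 genes, and 1110 of the 1247 genes had 1. Ahnak, Ttn and Hnrnpf, a splicing factor gene, also held the lowest values of the class, at 1.15, 1.16 and 1.31. Genes with 4 such peaks differed widely, with Xirp2 at 2.38 to 4.93 and Apc, the Wnt pathway tumour suppressor, at 31.6 to 153. Peaks of the same gene share an mRNA and are not independent.

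Along the gene, CDS peaks with the motif leaned towards the 3′ end. Of 1409 that lie within the RefSeq span of their gene, introns included, 584 (41.4%, 38.9 to 44.0) were centred in the last of 5 equal parts and 178 (12.6%) in the part nearest the start. The CDS peaks without the motif had 36.8% (31.1 to 42.9) in the last part, with an overlapping interval. Among named peaks, that of Fat1 was centred at 99.1% of the gene and that of Arid1b at 98.5%, whereas those of Fgd6 and Myog were at 7.63% and 7.06%. In 51 cases the peak covered 50 percent or more of the gene span, and these had a median length of 1749 bp and a median fold enrichment of 142 (105 to 215), near the 151 of all CDS peaks with the motif above 1200 bp. Jun, Cd14, Tor4a and Cebpd are among them.

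Most of the genes had no other listed peak. For 865 of the 1247 genes (69.4%, 66.8 to 71.9) all peaks in the table were CDS peaks with the motif, while 286 (22.9%) also had a 3′UTR peak and 56 a 5′UTR peak. Within those 286 genes the tallest CDS peak with the motif exceeded the tallest 3′UTR peak in 182 (63.6%, 57.9 to 69.0), and the medians were 24.95 and 13.3. The peaks compared were not matched for length. Over the whole table the median length was 690 bp in CDS peaks with the motif and 446.5 bp in 3′UTR peaks with it. The nearest 3′UTR peak lay a median of 9656.5 bp away on the genome, and within 1000 bp for 83 of 358 peaks.

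Some values are shared between entries. In 63 of the CDS peaks with the motif, exon blocks overlap another listed peak. In 30 pairs the partner is a gene on the opposite strand, and in 14 of these pairs the fold enrichments differ by no more than 10%. Fen1, which encodes a flap endonuclease, and Gm10143 have 196 and 195, and Tshz2 and Gm26883 have 386 and 390 at the same positions. These genes were named after their values were seen. The libraries were made with a stranded kit, but whether reads were assigned by strand is not given in the sources used here, and the cause of the close values was not tested.

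Many of these genes also carried peaks in myoblasts. By symbol, 647 of the 1247 genes (51.9%, 49.1 to 54.6) were also in the C2C12 list, which is 16.3% of its 3970 genes. For the genes of CDS peaks without the motif the share was 38.6% (32.7 to 44.9), for those of 3′UTR peaks with the motif 41.2% (38.6 to 43.7) and over all muscle peaks 39.1%. Against C2C12 peaks in coding exons alone, 538 genes (43.1%, 40.4 to 45.9) were shared, beside 28.2% and 20.3% for these other classes and 25.2% over all muscle peaks. With the 1247 genes divided by their tallest peak into 4 groups of near equal size, the share rose from 37.8% (32.6 to 43.3) in the lowest group to 45.8%, 59.3% and 64.6% (59.2 to 69.7) in the next ones. Expression, which could differ between these groups, was not measured in either table.

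Beside the 51.9% of all these genes, the C2C12 list held all 8 of the AP-1 and immediate early genes, 12 of the 14 extracellular matrix genes, 19 of the 32 chromatin genes and 31 of the 57 zinc finger genes. It held 5 of the 8 cell cycle genes, 3 of the 9 sarcomere genes and 1 of the 7 leukocyte genes. Of the 10 highest peaks, those of Mocs3 and Fibin were in genes with 1 C2C12 peak each, Zfp503 had 2, Tor4a 3 and Fat1 4, whereas Kcnk13, Il21r, Fgd6, Zfp84 and Hic1 had none. Of the genes with the most sites, Map1a and Plec had 6 C2C12 peaks each and Spen had 7, whereas 1110002E22Rik and Zfp516 had none. Of the Notch pathway genes, Spen, Maml1, Jag2 and Notch1 were in both lists. Myog was not in the C2C12 list.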

How the data were processed

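The submitters' processing notes name TopHat, MACS2 and mm10, without their roles. The authors deposited, for each muscle peak, a fold enrichment of IP over input, which is a ratio, and a p-value, with the exon blocks and the GGAC positions. The deposited columns of the authors' comparison between genotypes (log2 fold change, p-value and FDR) were not used, nor were 2 log-scaled peak columns damaged by a spreadsheet. The C2C12 list gives positions and annotation.

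Lengths were summed over exon blocks. In minus-strand peaks of several blocks, the listed positions follow the blocks in the wrong order, and 909 of 14306 lay outside the blocks. They were laid out anew, after which all 160 sites covered by RefSeq promoter windows (GRCm38.p6) read GGAC. Of the 1458 peaks, 1446 matched a RefSeq gene by symbol or by an older symbol. The named genes are the 10 highest peaks, the 5 with the most sites, the 5 densest, the 5 longest, the 3 lowest, the 5 genes with the most peaks (several tie at 4), up to 4 per list, and genes the study names. Genes at the low end of a list (Chd4, Dtx3, Zfp106, Col1a1, Col18a1, Col6a3), Zbtb22, Xirp2 and the markers' peaks were named after their values were seen. The members and lists were chosen with earlier results of these data known. No test was made, because peaks are not replicates. Shares have Wilson intervals, and medians binomial order-statistic intervals. The software was numpy 2.4.6, scipy 1.17.1 and pandas 2.3.3 under Python 3.11.15, and the calculations were tested on simulated data.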

Additional observations from a re-analysis of the deposited data

How the results depend on the processing

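Of 21 alternatives over 8 results, 15 left the value within its 95% interval, or for the number of peaks within 1.5 times. The median fold enrichment of CDS peaks with the motif went from 37.85 to 46.7 with the strongest peak per gene and to 30.6 in a single exon block. Its ratio to CDS peaks without the motif went from 7.52 to 1.40 in peaks of 100 to 300 bp. The median length was 779 bp as genomic span in place of 690 bp. The share of genes also in the C2C12 list went from 51.9% to 43.1% for C2C12 coding exons, and to 56.4% for genes with a peak at or above the median of all peaks. The causes were not tested. Matching through older symbols and leaving out overlapping peaks, which were chosen after seeing the data, gave values within the intervals. The DRACH share was computed on the 53 covered sites only, and the distance to the stop codon was not run, since no annotation of coding ends was used here. Depth is unknown. Pairing of samples did not apply, because the values used are given per peak and not per library.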
